A study of Mus musculus with 3 samples.

Results

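Gene expression on day 4 of reprogramming was compared with that on day 3 in wild-type primary mouse embryonic fibroblasts (MEFs) of the BL6 strain. The cells of both days had been transduced with rtTA and with tet-STEMCCA, a lentiviral cassette carrying Oct4, Sox2, Klf4 and c-Myc that doxycycline switches on, and were reprogrammed at passage 2. Both days also shared the gelatin-coated wells and the medium, which held doxycycline, chiron (a GSK3 inhibitor), an Alk5 inhibitor that blocks TGFb receptor signalling, ascorbic acid and LIF. No siRNA was given on either day, and the labels separate the groups by time alone. RNA was read in bulk by CEL-Seq2, a method that tags each transcript with a molecular identifier and reads its 3′ end. The 6 libraries, 3 per day, were chosen by their column names from 21 libraries of an untransfected time course (day 0 to day 6) and from 129 libraries in all, of which 127 were used. Each of the 3 GEO samples, labelled as replicates, held 1 library of each day. Libraries with the same replicate number belonged to the same GEO sample. The study pooled CEL-Seq2 samples after reverse transcription, so these GEO samples are read here as 3 sequenced pools, a term the labels do not use. The study calls its RNA sequencing replicates independent, but the labels do not say whether they were separate cultures. If they were not, the p-values measure only the spread between these libraries, which may be technical. A lentiviral cassette enters each cell on its own, and the whole culture was read together. In such bulk samples fewer cells of a type and less RNA per cell cannot be told apart.

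In the first days of reprogramming the 4 factors are known to act on a cell that is still a fibroblast. Its matrix, contractile and mesenchymal genes are turned down, epithelial adhesion genes follow, and the pluripotency network of the cell itself comes last. c-Myc is known as an activator of ribosome production and of cell division, which makes the genes of the nucleolus and of mitosis informative about these days. Forced expression of the factors is also known to stress fibroblasts, and the genes for glutathione, iron storage, chaperones and lysosomes are common readouts of such stress.

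The 6 libraries held between 63122 and 140671 counts. Day 3 libraries had 64055, 63122 and 128786 counts in replicates 1, 2 and 3, and day 4 libraries had 94827, 102859 and 140671. Levels are given in this order of replicates as CPM, with each library scaled by TMM over the 3013 genes that entered the test. A single count was worth 8.80 to 18.1 CPM on day 3 and 7.26 to 11.2 CPM on day 4, which limits what can be read from low genes. The day 3 libraries stood apart from every other day of the time course in nuclear noncoding RNA. Malat1 and Neat1, long RNAs that stay in the nucleus, took 0.545%, 0.355% and 0.448% of all counts on day 3 and 0.235%, 0.162% and 0.159% on day 4. The 7SK RNA entries Rn7sk, Gm24447 and Gm26315 took 0.111%, 0.0554% and 0.0559% on day 3 and no more than 0.00972% on day 4. The noncoding entries Gm42418 and Gm26917 took 3.89%, 3.83% and 4.14% on day 3 and 1.92%, 1.96% and 2.15% on day 4. Day 3 thus lay above day 4 in all 3 replicates for each of these classes. Transcripts of the mitochondrial genome took 22.6%, 22.5% and 19.7% of counts on day 3 and 20.8%, 20.4% and 19.9% on day 4, and these ranges overlapped. The part of the nuclear RNA in the results was not tested, and the day 3 group has no library without it, so the main results are also given with the day 2 libraries in place of day 3.

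**Figure D1:**
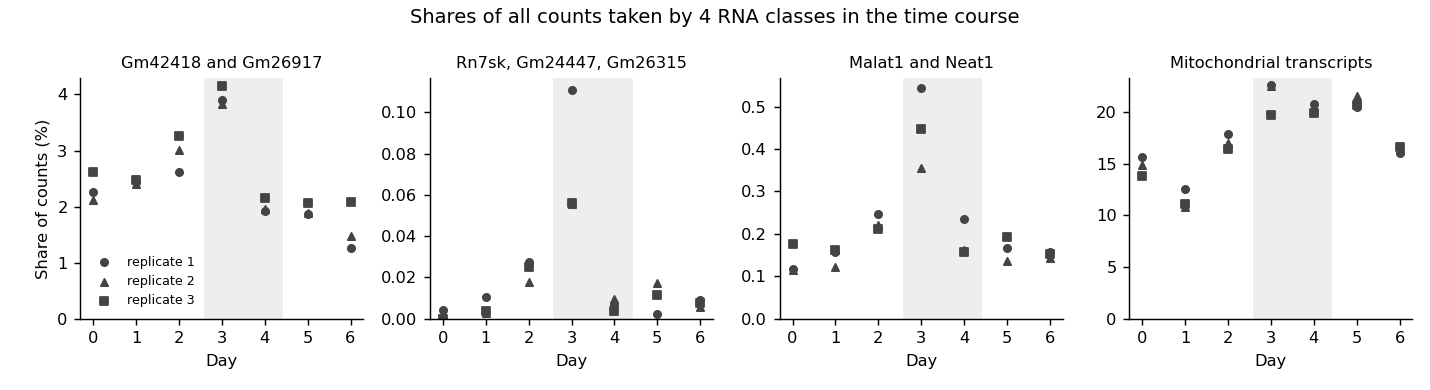
Share of all counts (%, y axis) taken by 4 RNA classes on each day of the time course (x axis, days 0 to 6), with 1 point per library and the marker shape giving the replicate. The shaded band marks days 3 and 4. The 3 day 3 libraries lie above all others in the first 3 panels (3.83% to 4.14% for Gm42418 and Gm26917), and days 3 and 4 overlap in the mitochondrial panel.

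The labelled cell type was checked against its markers. Of 8 fibroblast markers 6 passed the filter on low counts, and their summed level was 1906, 2240.3 and 2604 CPM on day 3 and 2265, 1934 and 2112 CPM on day 4, with overlapping days. Col1a2, a fibrillar collagen chain, had 752, 831 and 950.1 CPM on day 3 and 863, 688 and 776 CPM on day 4 and was not called (edgeR adjusted p = 0.734). Thy1, a fibroblast surface protein, was read with 69 counts on day 3 and 80 on day 4. Only Dcn of these markers was called, and it fell. Markers of other cell types were near the floor. The 8 macrophage markers had 21 counts on day 3 and 20 on day 4 over all libraries, with summed levels of 122, 54.2 and 96.8 CPM and 33.6, 111 and 43.5 CPM. Lyz2, the only one of them tested, was not called (adjusted p = 0.613) and has a near-identical copy in Lyz1, while Tyrobp had 1 count on each day. Endothelial markers had 5 and 10 counts, skeletal muscle markers 2 and 12, adipocyte markers 1 and 0, cartilage markers 1 and 4, erythroid markers 7 and 5, and epithelial cell markers 6 and 5, and none of these 6 lists had a member that passed the filter. Adipoq, Acan and Hba-a1 had no count on either day. Among 7 neural and glial markers Nefl, a neurofilament, was tested and rose (from 17.5, 90.3 and 26.4 CPM to 112, 182 and 102 CPM, log2 fold change 1.64 ± 0.51 (SE), edgeR adjusted p = 0.0188). The Dcn and Nefl calls were lost on leaving out a replicate: Dcn (without replicate 2 or 3, highest adjusted p = 0.126) and Nefl (without replicate 1 or 3, highest adjusted p = 0.178).

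Between day 3 and day 4, 360 of 3013 genes passed an adjusted p of 0.05 in the edgeR quasi-likelihood test, a share of 11.9%. Of these, 160 were higher on day 4 (5.31%) and 200 were lower (6.64%), and 136 of the former and 149 of the latter changed by at least 1 on the log2 scale. The median log2 fold change over all tested genes was 0.0058. The 3 libraries of one day did not overlap with those of the other for 755 genes (25.1%), among them 324 of the called genes. Without the replicate block 228 genes were called (105 higher, 123 lower). Scaling by RLE in place of TMM moved the median of all genes to -0.12 and the split to 126 higher and 280 lower, and DESeq2 gave 95 higher and 248 lower. The balance turned without the filter on low counts (175 called, 112 higher and 63 lower), with limma on the deposited log2 values (186 called, 119 higher and 67 lower) and without replicate 2 (215 called, 112 higher and 103 lower). The total was 203 without replicate 1 and 155 without replicate 3. Genes that fell below the filter when a replicate was left out were not tested there and are not counted as lost calls. With the day 2 libraries in place of day 3, 59 genes were called, 23 higher on day 4 (0.763%) and 36 lower (1.19%).

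**Figure D2:**
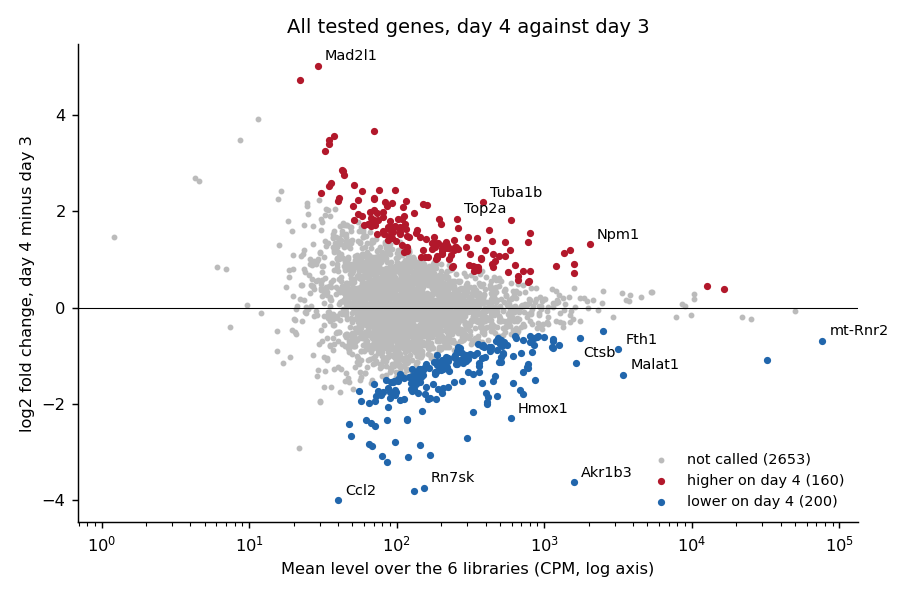
Log2 fold change of day 4 minus day 3 (y axis) against the mean level over the 6 libraries (x axis, CPM, log axis) for the 3013 genes tested, 1 point per gene. Red points are the 160 genes called higher on day 4, blue points the 200 called lower, grey points the rest. Akr1b3 at -3.63 is the called gene that stands farthest below the others at its level.

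Each step between neighbouring days was read from the same fit. The day 3 to day 4 step had the largest number of calls of the 6 steps run, and the step just before it the smallest, with 85 genes called between day 2 and day 3 (2.82%, 44 higher and 41 lower). Between day 4 and day 5, 144 genes were called (4.78%, 103 higher and 41 lower). The steps from day 0 to 1, day 1 to 2 and day 5 to 6 had 298, 145 and 237 calls. The difference between steps was tested gene by gene: the day 3 to 4 step differed from the day 2 to 3 step for 283 genes (9.39%) and from the day 4 to 5 step for 99 genes (3.29%). Without the replicate block these counts were 156 and 22. Neighbouring steps share the libraries of 1 day, so a gene with an unusual level on day 3 enters both the step into day 3 and the step out of it with opposite signs.

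**Figure D3:**
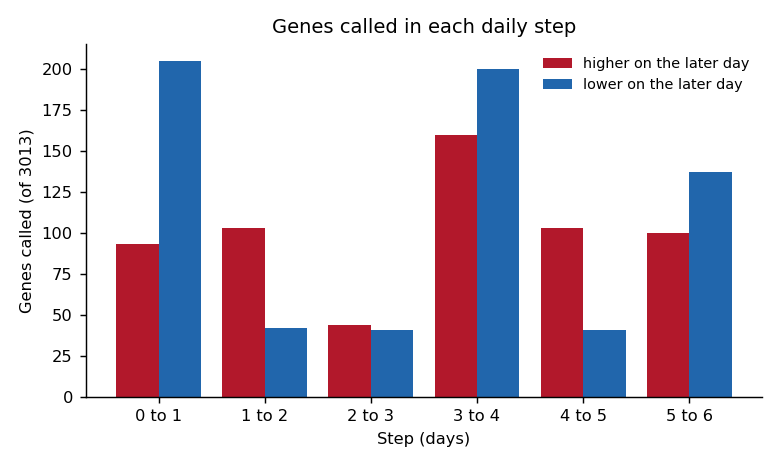
Number of genes called higher (red) or lower (blue) on the later day (y axis, of 3013 tested) in each step of 1 day (x axis). The step from day 3 to day 4 has 160 higher and 200 lower genes, and the step from day 2 to day 3 has 44 and 41.

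Among the lists used here, that of cell division held the largest number of higher genes. Of 47 listed genes of G2 and mitosis 30 were tested, 13 were higher on day 4, 17 were not called, and 29 of the 30 had a positive fold change. Their median log2 fold change was 1.18, beside 0.0058 over all genes. Top2a, the topoisomerase that untangles sister chromatids, had 139.9, 90.3 and 106 CPM on day 3 and 370.0, 354 and 472 CPM on day 4. All 3 day 4 libraries lay above all 3 day 3 libraries (log2 fold change 1.85 ± 0.31 (SE), edgeR adjusted p = 6.57e-07). Ccna2, the cyclin of S and G2 phase, had 17.5, 36.1 and 52.8 CPM on day 3 and 179, 273 and 138 CPM on day 4, again without overlap (log2 fold change 2.22 ± 0.48 (SE), edgeR adjusted p = 0.000262). Birc5, the survivin subunit of the chromosomal passenger complex, rose from 52.5, 108 and 17.6 CPM to 325, 243 and 152 CPM (log2 fold change 2.15 ± 0.45 (SE), edgeR adjusted p = 0.000193). Smc4, a condensin subunit, rose from 139.9, 36.1 and 123 CPM to 292, 223 and 290.3 CPM (log2 fold change 1.33 ± 0.35 (SE), edgeR adjusted p = 0.00364). Cenpa, the histone H3 variant of the centromere, had 1 count on day 3 and 23 on day 4 (16-fold, 95% counting interval 2.59 to 658). The other called members were Ccnb1, Cenpf, Kif20b, Hmmr, Anln, Smc2, Hmgb2 and H2afz, a cyclin, kinetochore, spindle, cleavage furrow, condensin and chromatin genes, with log2 fold changes from 0.65 to 2.75. Mki67, the common marker of dividing cells, was at 0.70 and did not pass the test (adjusted p = 0.332), and Pttg1, the securin, had the only negative value of the list (-1.03, adjusted p = 0.526). Leaving out a replicate ended the calls of Anln (without replicate 1, adjusted p = 0.232), Ccnb1 (without replicate 1 or 3, highest adjusted p = 0.0925), Cenpf (without replicate 1 or 3, highest adjusted p = 0.635), Kif20b (without replicate 3, adjusted p = 0.0821), Hmmr (without replicate 1 or 2, highest adjusted p = 0.0514), Smc2 (without replicate 2 or 3, highest adjusted p = 0.299), Hmgb2 (without replicate 2 or 3, highest adjusted p = 0.204) and H2afz (without replicate 2 or 3, highest adjusted p = 0.205).

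The summed level of the mitosis list was 3113, 3812 and 2507 CPM on day 3 and 5976, 6276 and 5377 CPM on day 4, so the days did not overlap. Over the time course it was 5529 ± 364 (mean ± SD, n = 3) on day 0, 7231 ± 443 on day 1, 4995 ± 771 on day 2, 3144 ± 653 on day 3, 5877 ± 458 on day 4, 6423 ± 768 on day 5 and 7042 ± 916 on day 6. Day 3 had the lowest mean, and its highest library (3812 CPM) lay below every library of day 4. With day 2 in place of day 3, edgeR called none of the 30, with 6 higher and 0 lower at an unadjusted p under 0.05, and the median was 0.26. Top2a was then at 0.63 ± 0.25 (SE), adjusted p = 0.192.

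Promoters of these genes are shown because the called members moved together, and because CCAAT boxes and the CHR element, which bind NF-Y and the DREAM and MuvB complexes, are known features of mitotic promoters. Sequences are from RefSeq on GRCm38, and 11 of the 13 called mitosis genes had an entry in the promoter table used, which did not hold Ccna2 and Smc4. CCAAT, on either strand, stood within 250 bases upstream of the start in 8 of the 11, compared with 33.8% of 32851 promoters. CCAAT also stood in 4 of the 5 promoters found for antioxidant genes lower on day 4, and the antioxidant core TGACNNNGC stood in 3 of these 11. The CHR core TTTGAA stood in 3 of 11, compared with 16% of all, and both motifs stood in Top2a, Smc2 and Hmgb2, compared with 5.55% of all. These are matches of letters and not sites shown to be bound. The 200 bases before the start of 3 of these genes follow, 5′ to 3′ on the strand of the gene, with each CCAAT (or ATTGG, its reverse complement) and each TTTGAA (or TTCAAA) in capitals: Top2a at chr11:99024190-99024389 (minus strand), Cenpa at chr5:30666686-30666885 (plus strand) and Ccnb1 at chr13:100786487-100786686 (minus strand).
Top2a: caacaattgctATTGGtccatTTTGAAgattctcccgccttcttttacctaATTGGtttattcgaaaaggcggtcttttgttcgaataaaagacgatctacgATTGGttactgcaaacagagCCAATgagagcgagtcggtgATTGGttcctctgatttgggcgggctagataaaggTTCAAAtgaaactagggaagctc
Cenpa: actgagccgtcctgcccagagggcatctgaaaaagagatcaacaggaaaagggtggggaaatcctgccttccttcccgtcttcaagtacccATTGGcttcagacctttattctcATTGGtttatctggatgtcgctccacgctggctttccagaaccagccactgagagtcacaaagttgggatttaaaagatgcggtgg
Ccnb1: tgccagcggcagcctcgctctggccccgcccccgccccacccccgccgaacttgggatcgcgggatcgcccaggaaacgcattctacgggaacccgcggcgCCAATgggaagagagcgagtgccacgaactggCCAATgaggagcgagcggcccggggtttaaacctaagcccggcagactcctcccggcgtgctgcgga

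Genes of DNA replication and of chromatin copying were higher in part. Of 42 listed replication and S phase genes only 12 passed the filter, 3 were higher, 9 were not called, and the median was 1.01. Uhrf1, which brings the maintenance methyltransferase to newly copied DNA, rose from 17.5, 54.2 and 17.6 CPM to 168, 192 and 131 CPM (log2 fold change 2.45 ± 0.55 (SE), edgeR adjusted p = 0.000527), and its 3′ end is nearly identical to that of Gm5648. Dut, which keeps uracil out of DNA, rose from 157, 235 and 44.0 CPM to 426, 334 and 268 CPM (log2 fold change 1.41 ± 0.31 (SE), edgeR adjusted p = 0.000403). Mcm7, a helicase subunit that overlaps Cops6 and Ap4m1 on the other strand, was at 1.53, adjusted p = 0.0209. In the list of chromatin genes of the embryonic state 3 of 16 tested genes were higher: Uhrf1, Hells, a chromatin remodeller (2.25, adjusted p = 0.00315), and Dnmt1, the maintenance methyltransferase (1.66, adjusted p = 0.0157). The call was lost on leaving out a replicate for Dut (without replicate 3, adjusted p = 0.114), Mcm7 (without replicate 1 or 2, highest adjusted p = 0.233), Hells (without replicate 1 or 3, highest adjusted p = 0.0701) and Dnmt1 (without replicate 2 or 3, highest adjusted p = 0.27). With day 2 in place of day 3 edgeR called no member of either list (at an unadjusted p under 0.05, 3 replication and 4 chromatin genes were higher), and Uhrf1 was at 1.51 ± 0.46 (SE), adjusted p = 0.0559.

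Of 28 genes of homologous recombination repair, a list that holds Brca1 and Bard1, only Atm and Chek1 were tested and neither was called (log2 fold changes 0.66 and 1.95). Rad50, a subunit of the complex that first binds broken ends, had 52.5, 108 and 123 CPM on day 3 and 123, 60.7 and 87.1 CPM on day 4 with overlapping days. The 28 genes together had 86 counts on day 3 and 252 on day 4, with summed levels of 297, 452 and 387 CPM and 841, 638 and 827 CPM that did not overlap. On day 2 their sum was 590.03 ± 161 CPM (mean ± SD, n = 3), with a highest library of 723 CPM that lay above the lowest of day 4, and the median against day 2 of the tested pair was -0.12. Brca1 had 3 and 10 counts (2.31-fold, 95% counting interval 0.596 to 13.1), and Bard1 had 0 and 2. Genes targeted by siRNA elsewhere in the study were mostly low as well: 9 of 33 were tested, Set was higher, and Kmt2e, a chromatin regulator, was lower (-1.08, adjusted p = 0.0227), with the others not called. Set, a histone chaperone with several near-identical pseudogenes, rose from 227, 524 and 308 CPM to 740.0, 719 and 711 CPM (log2 fold change 1.06 ± 0.22 (SE), edgeR adjusted p = 0.000129). Set stood at 0.20 ± 0.19 (SE), adjusted p = 0.728 against day 2, and edgeR called none of the 9 genes in that comparison (0 higher and 1 lower at an unadjusted p under 0.05), with a median of -0.41. Wdr5 had 8 counts on day 3 and 9 on day 4. The call of Kmt2e was lost on leaving out a replicate: Kmt2e (without replicate 1, 2 or 3, highest adjusted p = 0.313). The median of the 9 was 0.28 and changed sign without replicate 2.

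Tubulins, the subunits of microtubules and of the mitotic spindle, were higher in 5 of 7 tested genes of 12 listed. All 7 had a positive fold change, and the median was 1.37. Tuba1b had 157, 235 and 61.6 CPM on day 3 and 628, 759 and 457 CPM on day 4, and every day 4 library lay above every day 3 library (log2 fold change 2.19 ± 0.28 (SE), edgeR adjusted p = 7.61e-11). Tubb5 rose from 874, 1120.2 and 757 CPM to 2175, 2136 and 1908 CPM (log2 fold change 1.19 ± 0.17 (SE), edgeR adjusted p = 9.81e-09). Tuba1c was at 1.45, adjusted p = 1.82e-05, Tuba1a at 1.04, adjusted p = 0.00235 and Tubb3, the beta tubulin best known from neurons, at 1.54, adjusted p = 0.0485. The 3′ ends of Tuba1a, Tuba1b and Tuba1c are nearly identical to each other or to pseudogenes, so the split of counts among these 3 is uncertain. The summed level of the family was 1486, 2421 and 1548 CPM on day 3 and 4115, 4697 and 3911 CPM on day 4. It stood at 4063 ± 282 CPM (mean ± SD, n = 3) on day 2 and at 2790.2 ± 266 CPM on day 5, and with day 2 in place of day 3 edgeR called no tubulin (1 higher at an unadjusted p under 0.05). One call was lost on leaving out a replicate: Tubb3 (without replicate 1 or 3, highest adjusted p = 0.515). DESeq2, RLE scaling and the fit without the block did not call Tubb3 either.

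Ribosome production was the list with the next largest number of higher genes. Of 40 listed genes of ribosome biogenesis and the nucleolus 27 were tested, 8 were higher, 26 had a positive fold change, and the median was 0.86. Npm1, nucleophosmin, an abundant nucleolar chaperone, had 962, 1572 and 1020.5 CPM on day 3 and 2736, 2905 and 3004 CPM on day 4. The lowest day 4 library was well above the highest day 3 library (log2 fold change 1.31 ± 0.16 (SE), edgeR adjusted p = 6.59e-12). Ncl, nucleolin, rose from 804, 1084 and 721 CPM to 2018, 1782 and 1807 CPM (log2 fold change 1.13 ± 0.17 (SE), edgeR adjusted p = 1.39e-08), and Dkc1, the pseudouridine synthase of ribosomal RNA, rose from 192, 163 and 141 CPM to 493, 364 and 472 CPM (log2 fold change 1.47 ± 0.29 (SE), edgeR adjusted p = 4.31e-05). Pa2g4 was at 1.21, adjusted p = 0.0023 and Npm3, a relative of Npm1, at 2.43, adjusted p = 0.00347. Nop58, a core protein of box C/D particles, Wdr43, a processing factor, and Srm, the spermidine synthase, were the remaining calls. Npm1 has several near-identical pseudogenes, Pa2g4 and Npm3 each have a near-identical entry, and small noncoding RNAs lie within exons of Ncl. Leaving out a replicate ended the calls of Pa2g4 (without replicate 1, adjusted p = 0.0719), Npm3 (without replicate 2, adjusted p = 0.0709), Nop58 (without replicate 2, adjusted p = 0.0887), Wdr43 (without replicate 2, adjusted p = 0.0507) and Srm (without replicate 1 or 3, highest adjusted p = 0.589).

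With day 2 in place of day 3, Npm1 (0.74 ± 0.15 (SE), adjusted p = 0.000465) and Ncl (0.62 ± 0.15 (SE), adjusted p = 0.00987) were still called, and the median was 0.61. The summed level of the list ran from 4020.4 ± 266 CPM (mean ± SD, n = 3) on day 0 to 8003 ± 379.8 on day 1, 6697 ± 584 on day 2, 4896 ± 741 on day 3, 9733 ± 329 on day 4, 10963 ± 664 on day 5 and 8371 ± 615 on day 6.

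The ribosomal proteins themselves did not move as a block. Of 75 tested genes 1 was higher (Rps7, 0.57, adjusted p = 0.0402) and 1 lower (Rpl23, -0.59, adjusted p = 0.0178), the median was 0.10 and turned to -0.03 under RLE scaling, and their summed level overlapped between days (33707 ± 4965 CPM on day 3, 35857 ± 1538 CPM on day 4). Translation factors were called at about the share of all genes (4 of 37, beside 11.9%), with Eif4a1, the RNA helicase of the eIF4F complex (1.10, adjusted p = 0.0103), and Eif2s1, a subunit of eIF2 (1.53, adjusted p = 0.0301), higher, Eif5b and Pabpc1, the poly(A)-binding protein, lower (-0.63, adjusted p = 0.0439), and 33 of 37 not called. Among splicing factors 3 of 36 were higher, beside 5.31% of all genes. Srsf3, an SR protein, rose from 297, 723 and 325 CPM to 807, 1033 and 602 CPM and its days overlapped through replicate 2 of day 3 (log2 fold change 0.89 ± 0.21 (SE), edgeR adjusted p = 0.00078), Srsf7 was at 1.42, adjusted p = 0.0041 and Snrpd1, a core protein of the spliceosome, at 1.03, adjusted p = 0.0179. Of 24 proteasome subunits only Psma1 was called (1.26, adjusted p = 0.000957), and the median was 0.27. The Rps7 call was also lost under DESeq2, under RLE scaling and without the block. Rps7, Rpl23, Eif4a1, Eif2s1, Srsf3 and Snrpd1 have near-identical entries elsewhere in the genome, and a stretch at the end of Pabpc1 matches the ends of many unrelated genes. Against day 2 edgeR called no translation factor (2 higher and 0 lower at an unadjusted p under 0.05), no splicing factor (0 and 1) and no proteasome subunit (3 and 0). Of the 75 ribosomal protein genes it called 1 higher and 0 lower against day 2 (3 and 5 at an unadjusted p under 0.05). Leaving out a replicate ended the calls of Rps7 (without replicate 1 or 2, highest adjusted p = 0.351), Rpl23 (without replicate 1, 2 or 3, highest adjusted p = 0.177), Eif4a1 (without replicate 1 or 2, highest adjusted p = 0.178), Eif2s1 (without replicate 1, 2 or 3, highest adjusted p = 0.179), Eif5b (without replicate 2 or 3, highest adjusted p = 0.88), Pabpc1 (without replicate 1 or 2, highest adjusted p = 0.588), Srsf7 (without replicate 3, adjusted p = 0.0764), Snrpd1 (without replicate 1, 2 or 3, highest adjusted p = 0.114) and Psma1 (without replicate 3, adjusted p = 0.0567).

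Of 49 tested respiratory genes encoded in the nucleus 4 were called, a smaller share than the 11.9% over all genes. Uqcrq (1.44, adjusted p = 0.027), Cyc1 (1.58, adjusted p = 0.0355) and Atp5g3 (0.77, adjusted p = 0.00353) were higher, Cox4i1 was lower (-0.60, adjusted p = 0.0114), and the median was 0.25. Against day 2 that median was -0.14, and edgeR called none of the 49 (0 higher and 1 lower at an unadjusted p under 0.05). DESeq2, RLE scaling and the fit without the replicate block each ended the call of Cyc1. Transcripts of the mitochondrial genome went both ways. mt-Nd4l had 874, 1445 and 932 CPM on day 3 and 527, 395 and 443 CPM on day 4 without overlap (log2 fold change -1.23 ± 0.23 (SE), edgeR adjusted p = 1.82e-05), and mt-Rnr2, the large ribosomal RNA, was at -0.69, adjusted p = 0.000643. mt-Nd4 was higher (0.45, adjusted p = 0.00598), as was mt-Nd1 (0.39, adjusted p = 0.0185). Both calls were lost under RLE scaling and without the replicate block, and that of mt-Nd1 also under DESeq2. mt-Nd4l and mt-Nd4 overlap on the same strand, so their counts could be exchanged between them. The median of the 17 tested was 0.06 and changed sign under RLE scaling and without replicate 3. Against day 2, 3 of the 17 were higher on day 4, with mt-Nd4 at 0.74 ± 0.13 (SE), adjusted p = 1.01e-05. The test was no longer passed without a replicate for Uqcrq (without replicate 1 or 3, highest adjusted p = 0.336), Cyc1 (without replicate 1 or 2, highest adjusted p = 0.0887), Atp5g3 (without replicate 3, adjusted p = 0.317), Cox4i1 (without replicate 1, 2 or 3, highest adjusted p = 0.138), mt-Rnr2 (without replicate 2, adjusted p = 0.117), mt-Nd4 (without replicate 1 or 2, highest adjusted p = 0.0751) and mt-Nd1 (without replicate 2 or 3, highest adjusted p = 0.156).

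**Figure D4:**
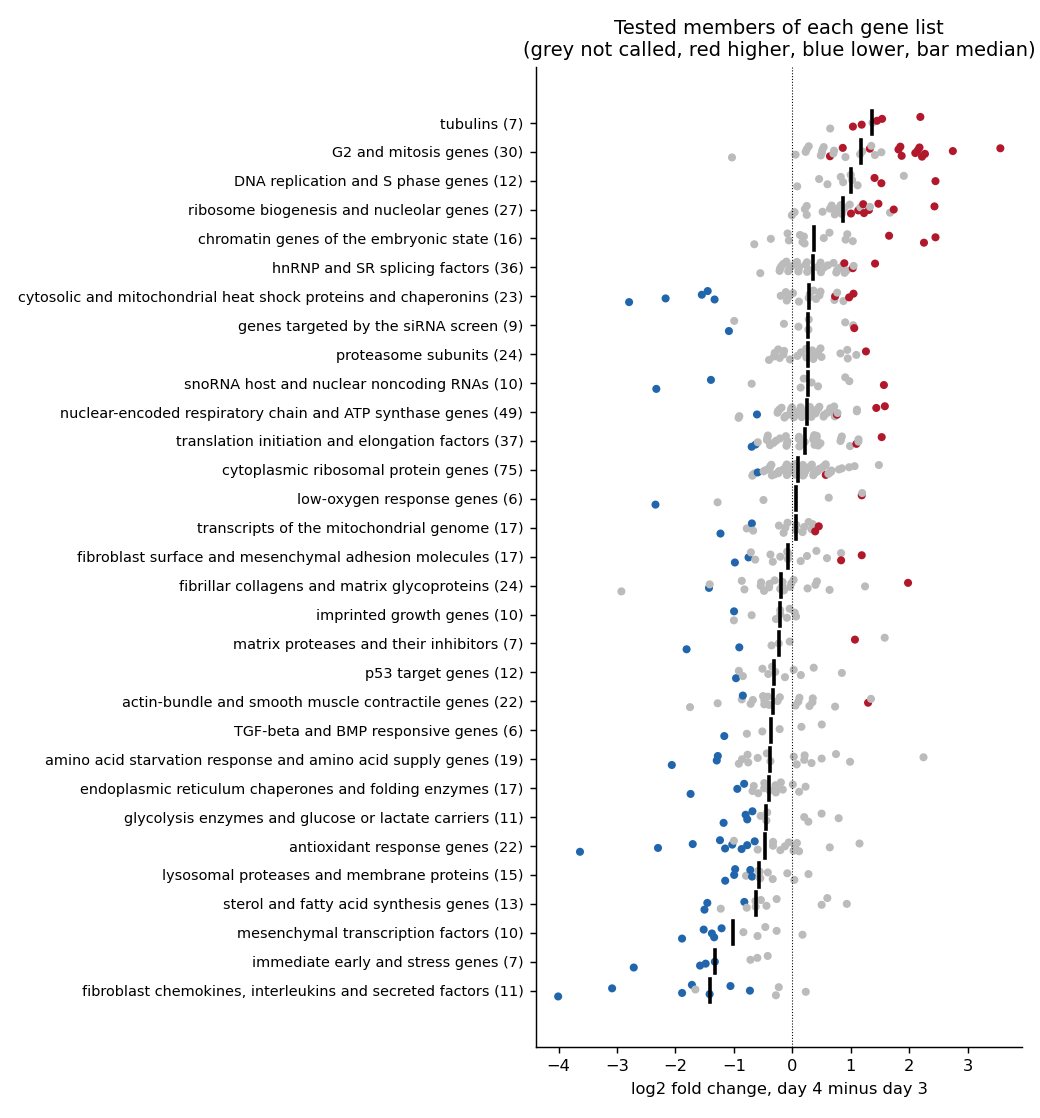
Log2 fold change of day 4 minus day 3 (x axis) for the tested members of each gene list with at least 6 of them (y axis, number tested in brackets), 1 point per gene, red where called higher, blue where called lower and grey where not called. Black bars are the list medians. They run from 1.37 for tubulins to -1.41 for chemokines and other secreted factors.

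Antioxidant genes were lower in part, among them several with high counts. Of 28 listed genes, which are textbook targets of NRF2 or act beside them, 22 were tested, 9 were lower, 13 were not called, and the median was -0.46. Akr1b3, aldose reductase, had 3148, 1933 and 3756 CPM on day 3 and 168, 253 and 276 CPM on day 4. Each day 4 library was below each day 3 library by a wide gap (log2 fold change -3.63 ± 0.22 (SE), edgeR adjusted p = 2.95e-37), although its 3′ end is shared with 3 pseudogenes. Hmox1, heme oxygenase, which breaks heme down to iron and bilirubin precursors, had 962, 1120.2 and 871 CPM on day 3 and 314, 132 and 159.6 CPM on day 4 (log2 fold change -2.30 ± 0.27 (SE), edgeR adjusted p = 1.71e-12). Fth1, the heavy chain of the iron store ferritin, fell from 4127, 4426 and 3783 CPM to 2299, 2227 and 2213 CPM (log2 fold change -0.87 ± 0.15 (SE), edgeR adjusted p = 2.22e-06), and Ftl1, its light chain, was at -0.64, adjusted p = 0.00244. Gclm, the modifier subunit of the enzyme that starts glutathione synthesis, fell from 665, 759 and 616 CPM to 426, 344 and 254 CPM (log2 fold change -1.03 ± 0.23 (SE), edgeR adjusted p = 0.000436). Gclc, the catalytic subunit (-1.70, adjusted p = 0.0154), Prdx6, a peroxiredoxin (-0.77, adjusted p = 0.00965), Pgd, an enzyme of the pentose phosphate pathway (-1.24, adjusted p = 0.017), and Sqstm1, the autophagy receptor p62 (-1.15, adjusted p = 0.00397), were also lower. Calls were lost on leaving out a replicate for Ftl1 (without replicate 3, adjusted p = 0.108), Gclc (without replicate 1 or 2, highest adjusted p = 0.126), Prdx6 (without replicate 2, adjusted p = 0.514), Pgd (without replicate 1, 2 or 3, highest adjusted p = 0.179) and Sqstm1 (without replicate 3, adjusted p = 0.239).

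Not all of the list fell. Nqo1 was at -0.33 (adjusted p = 0.683), Txnrd1 at 0.05 (adjusted p = 0.957) and Txn1, thioredoxin, at 1.15 (adjusted p = 0.276), none of them called. The summed level of the list was 14829, 15393 and 16688 CPM on day 3 and 8331, 7846 and 7989 CPM on day 4. On day 2 it was 10619 ± 1194 CPM (mean ± SD, n = 3), on day 5 8617 ± 326 CPM and on day 6 8749 ± 679.7 CPM, so day 3 had the highest mean of the course. With day 2 in place of day 3, Akr1b3 (-1.97 ± 0.24 (SE), adjusted p = 5.90e-11), Hmox1 (-1.20 ± 0.29 (SE), adjusted p = 0.007) and Gclm (-0.86 ± 0.23 (SE), adjusted p = 0.0197) were still called lower. Ftl1 and Fth1 have near-identical copies, and the end of Gclm holds a stretch nearly identical to Ppia and its related entries, with Gm6061 inside its exon, so its counts are uncertain.

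Promoters were searched for TGACNNNGC, the core of the antioxidant response element that NRF2 binds. RefSeq entries were found for 5 of the 9 lower genes (Gclm, Pgd, Fth1, Ftl1 and Sqstm1), and Hmox1, Gclc, Prdx6 and Akr1b3 were not in the promoter table used. Within 250 bases upstream of the start it stood in Gclm alone, compared with 10.2% of all promoters and 3 of the 11 mitosis promoters above. It is shown because Gclm was lower against both day 3 and day 2. The 200 bases before its start, at chr3:122245357-122245556 of GRCm38 (plus strand), carry the match on the opposite strand, in capitals.
Gclm: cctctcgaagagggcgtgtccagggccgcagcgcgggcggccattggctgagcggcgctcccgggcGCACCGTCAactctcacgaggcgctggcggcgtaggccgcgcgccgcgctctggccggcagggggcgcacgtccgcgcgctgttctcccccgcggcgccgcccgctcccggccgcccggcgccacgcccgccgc

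Of 29 listed chemokines, interleukins and other secreted factors 11 were tested, 7 were lower, 4 were not called (1 of them with a positive fold change), and the median was -1.41. Spp1, osteopontin, had 734, 1174 and 1232 CPM on day 3 and 437, 253 and 290.3 CPM on day 4 (log2 fold change -1.72 ± 0.24 (SE), edgeR adjusted p = 2.25e-09). Cxcl5, a neutrophil-attracting chemokine, fell from 489.6, 416 and 1099.6 CPM to 325, 182 and 268 CPM (log2 fold change -1.41 ± 0.26 (SE), edgeR adjusted p = 1.43e-05). Ccl2, the monocyte-attracting chemokine, had 17 counts on day 3 and 1 on day 4, a fall with a ratio of 24.5-fold, 95% counting interval 3.84 to 1023. Igfbp5 (-3.08, adjusted p = 0.000899) and Igfbp7 (-1.89, adjusted p = 0.00234), binding proteins of insulin-like growth factors, Ccl7 (-1.06, adjusted p = 0.00176), another monocyte chemokine whose days overlapped, and Grem1, a BMP antagonist (-0.72, adjusted p = 0.0179), completed the 7. Against day 2, Ccl2 (-3.87 ± 1.01 (SE), adjusted p = 0.0172) and Cxcl5 (-1.17 ± 0.27 (SE), adjusted p = 0.00386) were lower, while Spp1 was at 0.18 ± 0.29 (SE), adjusted p = 0.871. The summed level was 3847, 3523 and 5146 CPM on day 3 and 2052, 1660.2 and 1872 CPM on day 4, against 2286 ± 54.5 CPM (mean ± SD, n = 3) on day 2. Removal of a replicate ended the calls of Cxcl5 (without replicate 3, adjusted p = 0.156), Ccl2 (without replicate 3, adjusted p = 0.081), Igfbp5 (without replicate 1, adjusted p = 0.0723), Igfbp7 (without replicate 1, adjusted p = 0.0738), Ccl7 (without replicate 3, adjusted p = 0.298) and Grem1 (without replicate 1, 2 or 3, highest adjusted p = 0.182).

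Immediate early genes, which answer serum and stress within minutes to hours, fell in 4 of 7 tested cases, with a negative fold change in all 7 and a median of -1.33. Ier3 had 629.5, 307 and 616 CPM on day 3 and 78.5, 80.99 and 79.8 CPM on day 4, and the 3 day 4 libraries were nearly equal (log2 fold change -2.71 ± 0.38 (SE), edgeR adjusted p = 2.91e-09). Zfp36l1 (-1.33, adjusted p = 0.00472), Klf6 (-1.58, adjusted p = 0.0119) and Btg1 (-1.48, adjusted p = 0.0264), regulators of mRNA decay, transcription and growth arrest, were the others. Ier3 was also lower than on day 2 (-1.70 ± 0.41 (SE), adjusted p = 0.007). It was the only 1 of the 7 called in that comparison, where the median was -0.54, and Zfp36l1, Klf6 and Btg1 were not. Cyr61, a matricellular protein and YAP target below the filter, had 23 counts on day 3 and 1 on day 4 (33.1-fold lower, 95% counting interval 5.38 to 1364). Ifitm1, an interferon-induced membrane protein, fell from 139.9, 361 and 141 CPM to 44.9, 10.1 and 14.5 CPM (log2 fold change -3.11 ± 0.55 (SE), edgeR adjusted p = 3.79e-06), as the only call among 4 tested interferon genes, which all had a negative fold change. The calls of Zfp36l1 (without replicate 1 or 3, highest adjusted p = 0.156), Klf6 (without replicate 1, 2 or 3, highest adjusted p = 0.115) and Btg1 (without replicate 1 or 2, highest adjusted p = 0.114) were lost on leaving out a replicate.

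Mesenchymal transcription factors were lower on day 4 in 5 of 10 tested cases, with 5 not called and a median of -1.02. Twist2, a bHLH factor of the mesenchyme, had 559.6, 397 and 361 CPM on day 3 and 168, 142 and 189 CPM on day 4 without overlap (log2 fold change -1.34 ± 0.29 (SE), edgeR adjusted p = 0.000373). Tead1, the DNA-binding partner of YAP, was at -1.21, adjusted p = 0.000899, Ets2 at -1.89, adjusted p = 0.0178, Zeb2, a repressor of epithelial adhesion genes, at -1.52, adjusted p = 0.0387 and Runx1 at -1.38, adjusted p = 0.0417. Zeb2, Twist2 and Runx1 overlap antisense entries, and whether counting used the strand is not given in the sources used here. Against day 2 only 1 of the 10 was lower, and Twist2 was at -0.08 ± 0.33 (SE), adjusted p = 0.955. The summed level of the list was 6067 ± 703 CPM (mean ± SD, n = 3) on day 0, 3594 ± 241 on day 2, 3723 ± 273 on day 3, 2506 ± 395 on day 4 and 2701 ± 310.3 on day 6. Calls were lost on leaving out a replicate for Tead1 (without replicate 1, adjusted p = 0.0802), Ets2 (without replicate 1 or 2, highest adjusted p = 0.164), Zeb2 (without replicate 1, 2 or 3, highest adjusted p = 0.401) and Runx1 (without replicate 1, 2 or 3, highest adjusted p = 0.555).

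Of 24 tested collagens and matrix glycoproteins 2 were called, a smaller share than the 11.9% over all genes. Mgp, an inhibitor of calcification, was higher (1.98, adjusted p = 0.00543), Dcn, the proteoglycan decorin, was lower (-1.43, adjusted p = 0.00925), and the list median was -0.19 (0.05 against day 2, where edgeR called none, with 4 higher and 2 lower at an unadjusted p under 0.05). Their summed level was 18155 ± 929 CPM (mean ± SD, n = 3) on day 0, 6168 ± 447 on day 1, 7204 ± 618 on day 3 and 6272 ± 227 on day 4. Col4a1, the basement membrane collagen, fell from 385, 307 and 255 CPM to 78.5, 111 and 94.3 CPM (log2 fold change -1.67 ± 0.35 (SE), edgeR adjusted p = 0.00021) and was also lower than on day 2 (-1.42 ± 0.36 (SE), adjusted p = 0.0102). It was the only call among 3 tested basement membrane genes. Of 7 matrix proteases and inhibitors Timp1 was higher (1.07, adjusted p = 0.0294), and Timp3 (-0.91, adjusted p = 0.00958) and Mmp3 (-1.81, adjusted p = 0.0185) were lower. The median of the 7 was -0.23, and 0.45 against day 2. The Timp1 call was also lost under DESeq2, under RLE scaling and without the replicate block. Col4a1 overlaps Col4a2, and Timp3 overlaps Syn3, each on the other strand. Calls that did not hold without 1 of the replicates were those of Mgp (without replicate 3, adjusted p = 0.0636), Dcn (without replicate 2 or 3, highest adjusted p = 0.126), Timp1 (without replicate 2 or 3, highest adjusted p = 0.414), Timp3 (without replicate 1, 2 or 3, highest adjusted p = 0.125) and Mmp3 (without replicate 1 or 3, highest adjusted p = 0.257).

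Among 22 tested contractile genes 2 were called, 1 higher and 1 lower, a smaller share than the 11.9% over all genes. Tagln2, an actin-binding protein, rose from 122, 126 and 106 CPM to 359, 334 and 210.4 CPM (log2 fold change 1.30 ± 0.34 (SE), edgeR adjusted p = 0.0042), and Cald1, caldesmon, was at -0.85, adjusted p = 0.00021 with overlapping days. The days before day 3 lay higher: the summed level of the list was 27801 ± 2048 CPM (mean ± SD, n = 3) on day 0, 16857 ± 784 on day 1, 12472 ± 975 on day 2, 8761 ± 631 on day 3 and 8112 ± 539.5 on day 4. Against day 2, 6 of its members were lower on day 4, with Cald1 at -0.91 ± 0.18 (SE), adjusted p = 0.000259. None was higher (0 also at an unadjusted p under 0.05), so Tagln2 was not called against day 2. Surface and adhesion molecules went both ways in 17 tested genes: Anxa2, a calcium-dependent membrane protein, rose from 175, 325 and 238 CPM to 572, 577 and 479 CPM (log2 fold change 1.19 ± 0.27 (SE), edgeR adjusted p = 0.000442), Cd44, the hyaluronan receptor, was higher (0.84, adjusted p = 0.00707), and Cdh11, the mesenchymal cadherin (-0.98, adjusted p = 0.0131), and S100a4 (-0.75, adjusted p = 0.0161) were lower. Their median of -0.08 changed sign without replicate 2, and against day 2 edgeR called none of the 17 (0 higher and 1 lower at an unadjusted p under 0.05). Of 6 tested TGFb and BMP responsive genes 1 was lower, Tgfb2 (-1.16, adjusted p = 0.0157), and the median of -0.36 changed sign without replicate 3. Of 10 imprinted growth genes 1 was lower, Peg3 (-0.996, adjusted p = 0.0227), and the median was -0.21. Over all genes 6.64% were lower. With day 2 in place of day 3, edgeR called no member of either list. At an unadjusted p under 0.05, 1 TGFb and BMP responsive gene and 2 imprinted genes were then lower. The test was no longer passed without a replicate for Cald1 (without replicate 1, adjusted p = 0.0557), Cd44 (without replicate 3, adjusted p = 0.12), Cdh11 (without replicate 1, 2 or 3, highest adjusted p = 0.189), S100a4 (without replicate 1 or 3, highest adjusted p = 0.287), Tgfb2 (without replicate 2 or 3, highest adjusted p = 0.214) and Peg3 (without replicate 1 or 2, highest adjusted p = 0.334).

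Lysosomal genes were lower in 5 of 15 tested cases, with a median of -0.56. Ctsb, the protease cathepsin B, had 2361, 2059.7 and 2331 CPM on day 3 and 1177, 881 and 1023 CPM on day 4, and the days were far apart (log2 fold change -1.15 ± 0.17 (SE), edgeR adjusted p = 9.81e-09). Cd63 (-0.69, adjusted p = 0.00234) and Lamp1 (-0.72, adjusted p = 0.0052), membrane proteins of late endosomes and lysosomes, Ctsl, cathepsin L (-0.99, adjusted p = 0.00862), and Grn, progranulin (-0.98, adjusted p = 0.0129), were the others. Against day 2 edgeR called none of the 15 (0 higher and 0 lower at an unadjusted p under 0.05), and Ctsb stood at 0.27 ± 0.18 (SE), adjusted p = 0.58. Their summed level was 6775 ± 72.9 CPM (mean ± SD, n = 3) on day 2, 10824 ± 470.1 on day 3, 7243 ± 574 on day 4 and 6337 ± 179 on day 5. The calls of Cd63 (without replicate 2, adjusted p = 0.24), Lamp1 (without replicate 2 or 3, highest adjusted p = 0.115), Ctsl (without replicate 1 or 3, highest adjusted p = 0.342) and Grn (without replicate 1 or 2, highest adjusted p = 0.151) were lost on leaving out a replicate.

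Glycolytic enzymes were lower in 4 of 11 tested cases with a median of -0.44. Aldoa, aldolase, fell from 1084, 1265 and 871 CPM to 415, 587 and 406 CPM (log2 fold change -1.18 ± 0.22 (SE), edgeR adjusted p = 1.42e-05). Pkm, pyruvate kinase (-0.77, adjusted p = 0.000403), Pgam1, phosphoglycerate mutase (-0.68, adjusted p = 0.0159), and Gapdh (-0.80, adjusted p = 0.0211) were also lower, whereas Eno1, enolase, was at 0.28 (adjusted p = 0.557). All 4 lower genes have near-identical pseudogenes. Against day 2 edgeR called none of the 11 (1 lower at an unadjusted p under 0.05). Of 6 low-oxygen response genes Bnip3l, a mitophagy receptor, fell from 315, 90.3 and 185 CPM to 33.6, 50.6 and 29.0 CPM (log2 fold change -2.34 ± 0.50 (SE), edgeR adjusted p = 0.00021), Anxa2, named above, was higher, and the median of 0.07 changed sign under RLE scaling. The calls of Pkm (without replicate 3, adjusted p = 0.061), Pgam1 (without replicate 1, 2 or 3, highest adjusted p = 0.193) and Gapdh (without replicate 1, 2 or 3, highest adjusted p = 0.147) were lost on leaving out a replicate.

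Lipid synthesis was lower in 3 of 13 tested genes, with a median of -0.63 that stood at -0.088 against day 2, where 1 of the 13 was lower. Scd2, the stearoyl-CoA desaturase, had 1189, 1499.6 and 1152 CPM on day 3 and 516, 445 and 399 CPM on day 4 (log2 fold change -1.50 ± 0.21 (SE), edgeR adjusted p = 1.52e-09) and was also below day 2 (-1.07 ± 0.21 (SE), adjusted p = 0.000305). Fads1, a fatty acid desaturase (-1.45, adjusted p = 0.0178), and Msmo1, an enzyme of cholesterol synthesis (-0.82, adjusted p = 0.0463), were the others. Removal of a replicate ended the calls of Fads1 (without replicate 2 or 3, highest adjusted p = 0.337) and Msmo1 (without replicate 1, 2 or 3, highest adjusted p = 0.361).

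Of 17 tested chaperones and folding enzymes of the endoplasmic reticulum 3 were lower, beside 6.64% of all genes, with a median of -0.39. Against day 2 edgeR called none of the 17 (0 higher and 1 lower at an unadjusted p under 0.05), the median was -0.14, and the summed level was 5943 ± 349 CPM (mean ± SD, n = 3) on day 2, 7733 ± 323 on day 3 and 5624 ± 293 on day 4. Hsp90b1, the HSP90 of that compartment, fell from 1486, 1319 and 1539 CPM to 886, 688 and 885 CPM (log2 fold change -0.82 ± 0.18 (SE), edgeR adjusted p = 0.000284), and Calr, calreticulin, fell from 944, 759 and 1047 CPM to 426, 425 and 573 CPM (log2 fold change -0.94 ± 0.20 (SE), edgeR adjusted p = 0.000289), while Plod2, a collagen lysyl hydroxylase, was at -1.74, adjusted p = 0.00176. Among 23 cytosolic and mitochondrial heat shock genes 5 were lower and 3 higher, with a median of 0.28 that stood at -0.12 against day 2. Cryab, alpha B crystallin, fell from 577, 235 and 801 CPM to 101, 60.7 and 189 CPM (log2 fold change -2.17 ± 0.36 (SE), edgeR adjusted p = 6.10e-07). Hsph1, an HSP110, fell from 525, 434 and 563 CPM to 224, 213 and 203 CPM (log2 fold change -1.33 ± 0.28 (SE), edgeR adjusted p = 0.00021), and Hspb8 (-1.55, adjusted p = 0.000434), Hspb1 (-1.45, adjusted p = 0.00834) and Hspa1b, the inducible HSP70, were lower as well. The higher genes were Ptges3, the HSP90 co-chaperone p23 (from 349.7, 325 and 273 CPM to 538, 729 and 566 CPM, log2 fold change 0.97 ± 0.22 (SE), edgeR adjusted p = 0.000659), and the chaperonin subunits Cct5 (1.05, adjusted p = 0.028) and Cct8 (0.73, adjusted p = 0.0103), which fold actin and tubulin. Of the 23, edgeR called 1 higher and 1 lower against day 2 (3 and 4 at an unadjusted p under 0.05). These were Ptges3 (0.71 ± 0.21 (SE), adjusted p = 0.0424) and Hspb1 (-1.47 ± 0.40 (SE), adjusted p = 0.024). Cryab, Hsph1, Hspb8, Cct5 and Cct8 were not called against day 2, and Hspa1b was at -0.51 ± 0.80 (SE), adjusted p = 0.867. Cryab overlaps Hspb2 on the other strand. The calls of Plod2 (without replicate 3, adjusted p = 0.134), Hspb8 (without replicate 1, adjusted p = 0.0522), Hspb1 (without replicate 1 or 2, highest adjusted p = 0.122), Cct5 (without replicate 1 or 2, highest adjusted p = 0.258) and Cct8 (without replicate 1 or 3, highest adjusted p = 0.107) were lost on leaving out a replicate.

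Amino acid starvation genes were lower in 3 of 19 tested cases, beside 6.64% of all genes, while 16 were not called and 9 had a positive fold change (median -0.37): Nupr1 (-2.06, adjusted p = 0.00576), Slc7a11, the cystine carrier that feeds glutathione synthesis (-1.29, adjusted p = 0.0178), and Slc38a2, a neutral amino acid carrier (-1.27, adjusted p = 0.0265). Against day 2 edgeR called none of the 19 (0 higher and 0 lower at an unadjusted p under 0.05), and their median was -0.00086. Of 12 p53 targets 1 was lower, beside 6.64% of all genes: Mdm2, the ubiquitin ligase of p53 (-0.96, adjusted p = 0.0109). Cdkn1a, the cell cycle inhibitor p21, was at -0.34 (adjusted p = 0.232). No p53 target was called by edgeR against day 2 (1 higher and 2 lower at an unadjusted p under 0.05). Mt2, 1 of 2 tested metallothioneins, was higher than on day 3 (0.85, adjusted p = 0.0162) and than on day 2 (1.34 ± 0.27 (SE), adjusted p = 0.000524). Of 2 tested retinoid genes none was called, and Crabp1, a retinoic acid binding protein, had 157, 397 and 290.3 CPM on day 3 and 370.0, 466 and 261 CPM on day 4. Cyp26b1, which degrades retinoic acid, had 122, 126 and 114 CPM on day 3 and 33.6, 101 and 79.8 CPM on day 4 and was below the filter. Calls that did not hold without 1 of the replicates were those of Nupr1 (without replicate 1, adjusted p = 0.119), Slc7a11 (without replicate 1 or 2, highest adjusted p = 0.514), Slc38a2 (without replicate 1, 2 or 3, highest adjusted p = 0.287), Mdm2 (without replicate 1, 2 or 3, highest adjusted p = 0.127) and Mt2 (without replicate 1, 2 or 3, highest adjusted p = 0.103).

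Nuclear noncoding RNAs fell together with the shares given above. Malat1 had 5946, 3939 and 4918 CPM on day 3 and 2433, 1670.3 and 1611 CPM on day 4, and every day 4 library lay below every day 3 library (log2 fold change -1.39 ± 0.17 (SE), edgeR adjusted p = 5.36e-12). Neat1, the scaffold of paraspeckles, was at -2.33, adjusted p = 0.00309. Snhg5, a host of small nucleolar RNAs that overlaps Snord50a and Snord50b, was higher (1.57, adjusted p = 0.0191), and 7 of the 10 tested genes of the list were not called. Malat1 was at -0.24 ± 0.17 (SE), adjusted p = 0.605 against day 2. Calls were lost on leaving out a replicate for Neat1 (without replicate 3, adjusted p = 0.182) and Snhg5 (without replicate 1, 2 or 3, highest adjusted p = 0.115).

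The 12 largest rises were all of genes with few counts on day 3, so their sizes are given as ratios of counts scaled to library size, with 95% counting intervals that cover counting error only. Mad2l1, a spindle checkpoint protein, had 0 counts on day 3 and 18 on day 4 (at least 4.17-fold higher when day 3 is set to the floor of 3 counts), of which 14 came from replicate 2. Its fitted log2 fold change ran from 2.03 to 5.57 over the alternatives that gave one. Sf3b5, a subunit of the splicing factor SF3b, had 2 and 42 counts (14.6-fold, 95% counting interval 3.79 to 124.4; edgeR adjusted p = 1.82e-05). Ppic, a peptidyl-prolyl isomerase, had 1 and 21 counts (14.6-fold, 95% counting interval 2.35 to 603; adjusted p = 0.00472). Aspm, a spindle pole protein, had 2 and 25 counts (8.68-fold, 95% counting interval 2.16 to 75.6; adjusted p = 0.0106). Cenpa is given above. Exosc7, an exosome subunit, had a ratio of 14.6-fold, 95% counting interval 2.35 to 603, Lsm7, an mRNA decay and splicing protein, 8.68-fold, 95% counting interval 2.16 to 75.6, and Gmnn, the replication licensing inhibitor geminin, 6.6-fold, 95% counting interval 1.59 to 58.4. Anln, anillin (7.99-fold, 95% counting interval 1.97 to 69.9), Mpp6 (6.94-fold, 95% counting interval 1.69 to 61.3), Gm12583 (6.48-fold, 95% counting interval 2.00 to 33.3) and Gm10108, whose 3′ end is nearly identical to that of Cycs (12.5-fold, 95% counting interval 1.97 to 521), completed the 12. Stretches at the 3′ ends of Lsm7 and Anln also match other entries, among them Gm10146 for Lsm7 and Ilf2 for Anln. The test was no longer passed without a replicate for Mad2l1 (without replicate 2, adjusted p = 0.273), Exosc7 (without replicate 1 or 2, highest adjusted p = 0.0595), Lsm7 (without replicate 3, adjusted p = 0.107), Gmnn (without replicate 1 or 3, highest adjusted p = 0.276), Anln (without replicate 1, adjusted p = 0.232), Mpp6 (without replicate 1 or 2, highest adjusted p = 0.401), Gm12583 (without replicate 3, adjusted p = 0.108) and Gm10108 (without replicate 2, adjusted p = 0.116). Without replicate 3 Mad2l1, Cenpa, Ppic, Aspm, Anln, Mpp6 and Gm10108 were below the filter and not tested, as was Ppic without replicate 2. DESeq2 did not call Aspm, Lsm7, Gmnn, Anln or Mpp6, and limma on the deposited log2 values did not call Mad2l1, Aspm, Anln or Mpp6. Against day 2, the adjusted p of these 12 ran from 0.194 upwards in edgeR.

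Among the 12 largest falls Ccl2, Akr1b3, Ifitm1, Igfbp5 and Hspa1b are described with their lists. The 7SK entries Rn7sk (from 437, 235 and 185 CPM to 11.2, 40.5 and 7.26 CPM, log2 fold change -3.74 ± 0.58 (SE), edgeR adjusted p = 1.04e-07), Gm26315 (-3.81, adjusted p = 1.71e-07) and Gm24447 (-3.05, adjusted p = 1.45e-07) are near-identical copies and cannot be counted as separate genes. 7SK RNA holds back the elongation factor P-TEFb in the nucleus. Sprr2b, a cornified envelope protein whose 3′ end is close to those of Sprr2a1, Sprr2a2 and Sprr2a3, fell from 297, 181 and 282 CPM to 56.1, 30.4 and 21.8 CPM (log2 fold change -2.85 ± 0.56 (SE), edgeR adjusted p = 4.16e-05). Enpp2, autotaxin, which makes lysophosphatidic acid, fell from 122, 54.2 and 185 CPM to 22.4, 20.2 and 7.26 CPM (log2 fold change -2.89 ± 0.68 (SE), edgeR adjusted p = 0.000957). Ampd3, an AMP deaminase, fell from 175, 126 and 167 CPM to 0, 50.6 and 0 CPM (log2 fold change -3.21 ± 0.72 (SE), edgeR adjusted p = 0.000454), and other entries overlap it on both strands. Prss35, a serine protease-like protein, was at -2.83, adjusted p = 0.00391 with overlapping days. Hspa1b had 175, 108 and 229 CPM on day 3 and 11.2, 30.4 and 29.0 CPM on day 4 (log2 fold change -2.79 ± 0.62 (SE), edgeR adjusted p = 0.000434). The calls of Ccl2 (without replicate 3, adjusted p = 0.081), Igfbp5 (without replicate 1, adjusted p = 0.0723) and Prss35 (without replicate 3, adjusted p = 0.347) were lost on leaving out a replicate. Ampd3, Enpp2 and Hspa1b were below the filter without replicate 3 and not tested there. Of these 12, only Akr1b3 and Ccl2 were called against day 2.

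Levels on other days were as follows. Akr1b3 had 2011 ± 861 CPM (mean ± SD, n = 3) on day 0, 289.5 ± 94.6 on day 1, 921 ± 384 on day 2, 2946 ± 928 on day 3, 232 ± 56.7 on day 4 and 266 ± 105 on day 5. Hmox1 had 446 ± 220.1, 984 ± 126, 202 ± 98.2 and 147 ± 58.7 CPM on days 2 to 5. For both, the day 3 to 4 step differed from the day 2 to 3 step and from the day 4 to 5 step (edgeR adjusted p = 1.29e-35 and 1.63e-11 for Akr1b3, 3.78e-11 and 0.0178 for Hmox1). Npm1 went from 1736 ± 191 CPM on day 2 to 1185 ± 337 on day 3, 2882 ± 136 on day 4 and 3857 ± 695 on day 5. Tuba1b went from 407 ± 34.3 to 151 ± 86.8, 615 ± 151 and 440.0 ± 20.9 CPM on these days. The step tests gave adjusted p = 1.33e-07 (before) and 0.028 (after) for Npm1, and 3.27e-09 and 2.66e-07 for Tuba1b. Akr1b3 and Hmox1 were thus highest on day 3 among days 2 to 5, and Npm1 and Tuba1b lowest. All of these genes were named because their day 3 to day 4 change was called. Both step tests share that change, so their adjusted p is a description and not independent support.

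**Figure D5:**
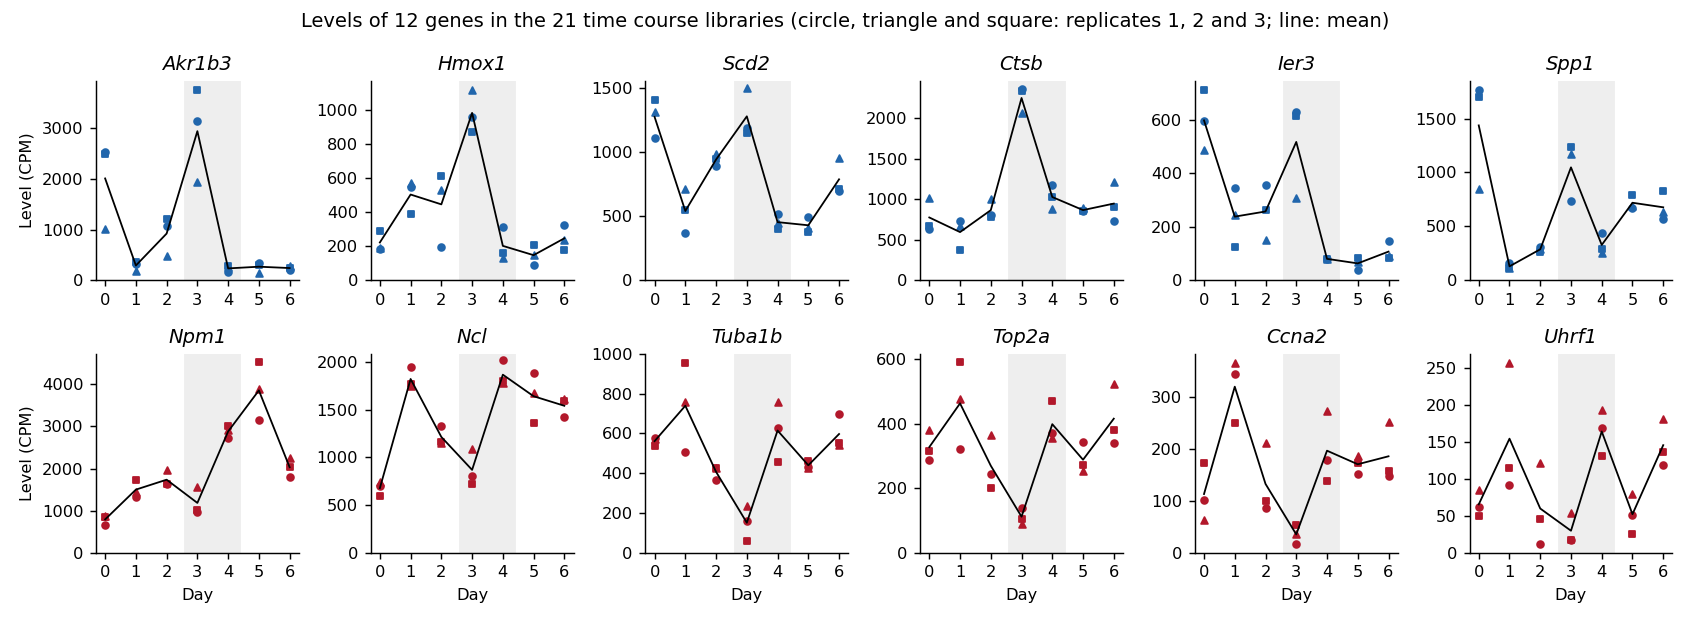
Level (y axis, CPM) of 12 called genes on each day of the time course (x axis, days 0 to 6), with 1 point per library, the marker shape giving the replicate and the line joining the means of 3. The upper row (blue) holds genes lower on day 4 and the lower row (red) genes higher on day 4, and the shaded band marks days 3 and 4. In the upper row the day 3 libraries lie above the day 4 libraries, and in the lower row below them, for all 12 genes.

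Genes of the later stages were at or below the limit of these libraries. Of 34 listed pluripotency genes L1td1 and Fut9 were tested and neither was called (log2 fold changes 2.63 and 0.43, with a median of 1.53 that changed sign without replicate 1), and 13 had no count in any of the 6 libraries. The 34 genes together had 28 counts on day 3 and 50 on day 4. Sall4, Esrrb and Zfp42 had no count on either day, which allows up to 3 of 255963 counts on day 3 and 3 of 338357 on day 4. Nanog had 1 and 0 counts. Klf5 had 0, 36.1 and 26.4 CPM on day 3 and 22.4, 20.2 and 50.8 CPM on day 4, and Tet2 had 3 and 11 counts (2.55-fold, 95% counting interval 0.673 to 14.2). Of 30 epithelial genes only Perp, a desmosome-associated protein, was tested, and it had 87.4, 181 and 44.0 CPM on day 3 and 157, 253 and 167 CPM on day 4 and an adjusted p of 0.0615. Pkp2, a desmosomal plakophilin, had 17.5, 36.1 and 17.6 CPM on day 3 and 101, 40.5 and 36.3 CPM on day 4 and was below the filter. The 30 genes had 49 counts on day 3 and 112 on day 4, with summed levels of 245, 235 and 194 CPM and 314, 415 and 312 CPM that did not overlap. Perp had 20 of the former and 62 of the latter counts, and without Perp the sums of the days overlapped. On day 2 the sum of the list was 251 ± 118 CPM (mean ± SD, n = 3), with a highest library of 379 CPM that lay above the lowest of day 4. Cdh1, E-cadherin, had 2 counts and 1 count. Krt8 had 0 and 2. Of 20 squamous surface genes 3 were tested and none was called, with Anxa8 at 0, 36.1 and 35.2 CPM on day 3 and 67.3, 91.1 and 58.1 CPM on day 4 and Fgfbp1 at 17.5, 0 and 17.6 CPM on day 3 and 33.6, 50.6 and 0 CPM on day 4. Of 17 Wnt targets only Ccnd1, a G1 cyclin, was tested (367, 524 and 466 CPM on day 3 and 538, 425 and 551 CPM on day 4, adjusted p = 0.744), and Lgr5 had 17.5, 36.1 and 17.6 CPM on day 3 and 22.4, 10.1 and 36.3 CPM on day 4.

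The genes of the cassette were hardly read. Klf4 had 6 counts on day 3 and 5 on day 4, Myc 2 and 4, Sox2 0 and 1, and Pou5f1 (Oct4) had no count on either day. None was tested. CEL-Seq2 reads transcript 3′ ends, and whether reads of the cassette transcript are counted under these symbols is not given in the sources used here, so these counts do not check its expression.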

How the data were processed

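CEL-Seq2 libraries of bulk RNA were compared. Reads had been aligned by the authors to mm10 (Bowtie2), who collapsed unique molecular identifiers with the CEL-Seq2 pipeline and matched them to GENCODE vM13, and the deposited counts per gene are not normalized. The deposited log2 values (10568 genes) were normalized and regressed on batch by the authors with scater and scran, and were used only in an alternative. Libraries were assigned to days by column names, and the 3 GEO samples are taken as the 3 sequenced pools.

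Of 129 libraries, 127 with at least 10000 counts were used (29656 to 235292 counts, median 73279); those left out had 6403 and 7981. Of 50507 genes, 3013 passed filterByExpr by condition. Counts were scaled by TMM and fitted in edgeR 4.0.16 (R 4.3.3) by quasi-likelihood with a term per condition and the replicate as block (83 residual df), with Benjamini-Hochberg adjustment over all genes tested and a threshold of 0.05. SEs follow from the fold change and its test statistic. Replicate numbers mark a shared GEO sample per the labels, which is taken as a shared sequencing pool. Deviations from the day mean correlated between day 3 and day 4 at 0.0763, 0.117 and 0.217 for the same number and at -0.136 to 0.0185 for different numbers. Replicates differed beyond counting noise (chi-square per gene 1.38 to 2.02), so none was counted as a copy of another library. This spread cannot tell separate cultures from repeated preparations of the same culture.

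Genes named were the 12 largest changes in each direction with a mean of at least 50 CPM on 1 of the days and the same sign in each replicate, then up to 5 called genes per list by p, or, where none was called, the 2 with the highest mean CPM; further called or uncalled members were named from the lists after their values were seen. The comparison, its lists and the genes named were chosen with earlier results of these data known. Summed list levels include members below the filter. Exact 95% counting intervals and the floor of 3 counts over a day cover counting error only. Positions and near-identical 3′ ends (at least 95% identity over 100 bases of the last 300) came from GENCODE on GRCm38. The scripts were tested on simulated data. Alternatives were RLE scaling, DESeq2 1.42.0, no filter, no block, fewer libraries, each replicate left out, limma 3.58.1 on the deposited log2 values and, added after the data were seen, the day 2 libraries in place of day 3.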

Additional observations from a re-analysis of the deposited data

Results flagged for a closer look

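The 12 largest changes in each direction were set against the neighbouring steps, and the difference of the 2 steps was tested in the edgeR fit over all 3013 genes. Values are log2 differences, the day 3 to day 4 step minus the other step. Both steps of a pair use the libraries of their shared day, and the cause of any difference was not tested.

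Against the step from day 2 to day 3, genes that rose differed by 9.58 for Mad2l1 (adjusted p = 0.00554), 7.20 for Sf3b5 (adjusted p = 1.06e-05) and 5.82 for Cenpa (adjusted p = 0.0245). The other rising genes past the threshold were at 6.48 for Ppic (adjusted p = 0.00639), 6.10 for Gm10108 (adjusted p = 0.0183) and 5.89 for Lsm7 (adjusted p = 0.0017).

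Genes that fell differed from the step before by -4.15 for Ccl2 (adjusted p = 0.0457), -5.81 for Gm26315 (adjusted p = 2.12e-07) and -5.62 for Rn7sk (adjusted p = 2.08e-07). The difference was -5.30 for Akr1b3 (adjusted p = 1.29e-35), -5.17 for Ampd3 (adjusted p = 0.000409), -4.59 for Ifitm1 (adjusted p = 1.66e-05) and -4.78 for Igfbp5 (adjusted p = 0.00144). Further differences were -4.45 for Gm24447 (adjusted p = 1.18e-06), -4.12 for Enpp2 (adjusted p = 0.0035), -3.76 for Sprr2b (adjusted p = 0.000798) and -4.16 for Prss35 (adjusted p = 0.00782). The remaining gene was Hspa1b at -5.08 (adjusted p = 9.52e-05).

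Against the step from day 4 to day 5, genes that rose differed by 3.95 for Sf3b5 (adjusted p = 0.00326), 3.95 for Ppic (adjusted p = 0.0454) and 4.31 for Aspm (adjusted p = 0.0215). Genes that fell differed by -4.51 for Gm26315 (adjusted p = 0.0398), -4.94 for Rn7sk (adjusted p = 0.00655) and -3.80 for Akr1b3 (adjusted p = 1.63e-11). The other falling genes were at -5.81 for Ifitm1 (adjusted p = 6.67e-06), -3.35 for Gm24447 (adjusted p = 0.0444) and -4.49 for Enpp2 (adjusted p = 0.0331).

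Each gene had the sign of its day 3 to day 4 change in all 3 replicates, since the genes were chosen so. They were also chosen for the size of that change, which both tests share, so the adjusted p is given as a description and not as independent support. Mad2l1 had no count on day 3, Cenpa, Ppic and Gm10108 had 1, and Sf3b5, Lsm7 and Aspm had 2, so the fitted differences of these 7 genes are no measure of size.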

How the results depend on the processing

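Against 360 calls (160 higher, 200 lower), 283 step differences from day 2 to 3 and 99 from day 4 to 5, the counts moved as follows. Without the filter on low counts, 175 genes were called, 112 higher and 63 lower, with 122 and 34 step differences, and 30778 genes entered the adjustment. DESeq2 called 95 higher. Without the replicate block 228 genes were called (105 higher, 123 lower), with 156 and 22 step differences. The time course libraries alone gave 162 differences from the step after. limma on the deposited log2 values called 186 genes, 119 higher and 67 lower, with 158 and 9 step differences. Leaving out each replicate in turn gave 155 to 215 calls, 74 to 112 higher and 81 to 107 lower, with 100 to 159 and 17 to 43 step differences, the lowest each time without replicate 3, the deepest pool on day 3. With day 2 in place of day 3, an alternative chosen after seeing the data, 59 genes were called, 23 higher and 36 lower. Where not set by the number of genes or libraries, the cause was not tested. RLE scaling, DESeq2 and the 6 libraries alone kept the total within 1.5 times, at 406, 343 and 339 calls, of which 326, 294 and 268 were among the 360. No named gene changed sign with a call under these settings. Of 123 called genes named by the rule, 7 lost the call under RLE scaling, 18 under DESeq2, 36 without the block, 54 without the filter, 69 under limma, and 47, 43 and 50 without replicates 1, 2 and 3, where genes then below the filter were not tested and are not counted. List medians changed sign for 7 lists, named with their values, and of 39 medians 12 moved by more than their replicate SD under RLE scaling and 11, 12 and 12 without replicates 1, 2 and 3. Genes under about 18.1 CPM on day 3 rest on single counts.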
